A study of Homo sapiens with 6 samples.

Results

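The genes described are those that encode the proteins of the mitochondrial ribosome, as chosen by symbol: MRPL or MRPS followed by a number and, in some, a letter from A to C, with pseudogenes left out. Of the 60671 genes counted, 78 met this rule, 49 of them named for the large and 29 for the small subunit. RNA was taken from 3 human lung adenocarcinoma lines, A549, HCC827 and H1975, after 48 h with AL-X at 10 µg/mL or after 48 h with the solvent DMSO. AL-X is 9α,11α-dihydroxy-kaurenoic acid, a diterpenoid. The labels give every line the genotype WT, although HCC827 and H1975 are known to carry mutant EGFR. Each line gave 1 AL-X and 1 DMSO library, so no treatment has a replicate within a line. The labels name no further cultures, and p-values measure only the spread between lines.

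Mitochondrial ribosomes translate the few proteins that the mitochondrial genome still encodes, all of them core parts of the respiratory chain or of ATP synthase. Their ribosomal RNAs come from the mitochondrial genome, but every ribosomal protein is made from nuclear genes, translated in the cytosol and imported. The small subunit reads the mRNA, and the large subunit forms the peptide bond and passes the chain through an exit tunnel at the inner membrane. Many of the proteins descend from bacterial ribosomal proteins, and the others were added in mitochondria.

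Library totals ranged from 98139178 to 126840915 counts. Every one of the 78 genes had counts in every library, from 245 to 21053, and all passed the filter on low counts. Levels are given as counts per 1000000 (CPM), scaled by TMM. Of 5 epithelial markers, all were at 1 CPM or more in 5 of the 6 libraries and 4 were in A549 with AL-X. KRT8 and KRT18 were at 437 CPM or more in every library, while EPCAM was at 0.814 CPM with AL-X and 2.94 CPM with DMSO in A549, against 241 CPM or more in the other lines. In A549 KRT19 was at 2.56 CPM with AL-X and 5.51 CPM with DMSO, and CDH1 at 8.67 CPM with AL-X and 230 CPM with DMSO. Of 4 leukocyte markers PTPRC and CD3E were at 0 in all 6 libraries, and 1, CD68, was above 1 CPM, at 8.94 to 96.9 CPM in A549 and H1975 and at 472 CPM with AL-X and 81.0 CPM with DMSO in HCC827. Of 3 endothelial markers only CDH5 was above 1 CPM, at 2.94 CPM in H1975 with DMSO. Of 4 fibroblast markers only COL1A1 was above 1 CPM. It was at 0.65 CPM in A549 with AL-X and at 7.03 to 18.6 CPM in the other libraries. The part of these markers in the results was not tested.

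No mitochondrial ribosomal protein gene passed the test of a shared response to AL-X. Their across-line log2 folds ran from -1.0 for MRPL46 to 1.24 for MRPL18, with a median of 0.38 beside -0.27 for all 20344 genes tested. Across lines 64 of the 78 (82.1%) had a log2 fold above 0, against 41.7% of all genes tested. With library totals as the scaling 35 of the 78 (44.9%) did, against 28.9% of all genes, and the members' median was -0.05. All 13 mitochondrially encoded mRNAs, which their ribosome translates, fell in the same fit, with a median log2 fold of -8.03. That call depended on the fit. All 13 passed with DESeq2, with limma-voom, without A549 and without HCC827. Of the 13, 11 passed with a filter at 1 CPM in 3 libraries, and 4 passed without H1975. With library totals as the scaling, with no filter on low counts or without the block by line, 0 passed. Those fits called 0 of all genes tested. The summed level of those mRNAs was 0.0114 times that of the ribosomal protein mRNAs in A549 with AL-X, against 19.4 times with DMSO. The ratio was 0.359 with AL-X and 15.6 with DMSO in HCC827, and 0.0521 with AL-X and 20.3 with DMSO in H1975. Every AL-X library lay below every DMSO library in this ratio.

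The test was edgeR's quasi-likelihood test with the line as a block, with TMM scaling. At a Benjamini-Hochberg adjusted p under 0.05 it called 0 of the 78 genes, against 0.256% of all genes tested (0.0983% higher and 0.157% lower), and 0 of the 78 had an unadjusted p under 0.05 (15.7% of all genes did). The smallest edgeR adjusted p among them was 0.351. DESeq2 called 0 as well, with 1 gene at unadjusted p under 0.05, beside 9.91% of all genes called, and limma-voom called 0, with 2 at unadjusted p under 0.05, beside 3.04% of all genes. The standard errors of the log2 folds were 0.45 to 0.85 over 3 pairs. In bulk RNA, fewer cells and less RNA per cell cannot be told apart.

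Within lines, the genes sat above the middle of the transcriptome in A549 and H1975 and below it in HCC827. A log2 fold is AL-X over DMSO. Its median over the 78 genes was 0.70 in A549 (-0.28 for all genes tested), -0.34 in HCC827 (all genes -0.07) and 0.69 in H1975 (all genes -0.20). In A549 26 of the 78 genes were at least 2-fold higher with AL-X (30.0% of all genes at 5 CPM or more were) and 1 was at least 2-fold lower (31.4% of all genes). In HCC827 0 were at least 2-fold higher (10.7% of all genes) and 8 were lower (17.2%). In H1975 21 were at least 2-fold higher (15.4%) and 1 was lower (17.7%). These counts hold for TMM. With library totals 3 genes were at least 2-fold higher (12.6% of all genes) and 20 lower (51.9%) in A549, 2 higher (13.8%) and 6 lower (15.1%) in HCC827, and 3 higher (6.91%) and 2 lower (28.2%) in H1975. These folds have no replicate check.

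**Figure D1:**
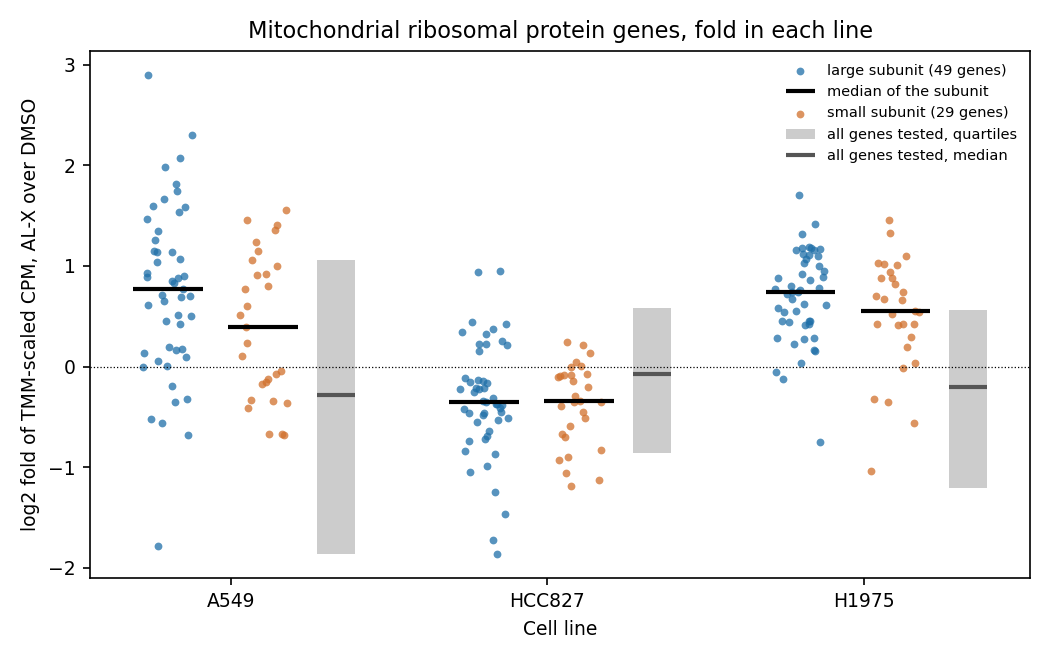
Each point is a mitochondrial ribosomal protein gene, and the vertical axis is its log2 fold of TMM-scaled CPM, AL-X over DMSO, in A549, HCC827 and H1975. Black lines are medians of the large and small subunit, and grey boxes with a dark line show the quartiles and median of all genes tested. Both subunits lie above the all-gene median in A549 and H1975 and below it in HCC827.

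In 44 of the 78 genes (56.4%) the log2 fold was above 0 in A549 and H1975 and below 0 in HCC827, a pattern held by 13.4% of all genes tested. With library totals 14 of the 78 (17.9%) held it, against 6.11% of all genes. The sign was the same in all 3 lines for 26.9% of the genes, against 42.9% of all genes. Across the 78 genes, the A549 folds followed those of H1975 most closely (Pearson 0.501, Spearman 0.398). HCC827 folds had a Pearson correlation of 0.152 and a Spearman correlation of 0.184 with A549, and of 0.229 and 0.267 with H1975. Over all genes the Pearson correlation of A549 folds was 0.573 with those of H1975 and 0.275 with those of HCC827, and HCC827 and H1975 had 0.192. Genes of a library share its depth and scaling and are not independent replicates.

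Whether HCC827 departed from the other lines was tested in edgeR as an interaction, which leaves 1 residual degree of freedom. With TMM, its log2 fold minus the mean of the other lines was below 0 for 73 of the 78 genes, with a median of -0.86. The share of all genes below 0 was not counted. The contrast depends on the scaling: with library totals the members' median log2 folds were -0.31 (A549), -0.22 (HCC827) and 0.28 (H1975). None passed (0 of 78, smallest edgeR adjusted p = 0.424), where 0.261% of all genes tested did. MRPL18 and MRPL54 had an unadjusted p under 0.05, as did 8.19% of all genes. For A549 against the others 0 passed (0.28% of all genes did), and 1, MRPL18, had an unadjusted p under 0.05 (11.0% of all genes), with an interaction of 2.49 (SE 0.90, edgeR adjusted p = 0.251). For H1975 0 passed (0.0% of all genes) and 0 had an unadjusted p under 0.05 (1.16% of all genes).

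The sign in A549 depended on the scaling. Summed over the 78 genes, the scaled level was 4455 CPM with AL-X and 2606 CPM with DMSO in A549, 2397 CPM with AL-X and 2981 CPM with DMSO in HCC827, and 3842 CPM with AL-X and 2327 CPM with DMSO in H1975. As a plain share of all counts the genes took 0.247% with AL-X (exact binomial 95% interval 0.246 to 0.248) and 0.288% with DMSO (0.287 to 0.289) in A549. The share was 0.305% with AL-X (0.304 to 0.306) and 0.347% with DMSO (0.345 to 0.348) in HCC827. In H1975 it was 0.347% with AL-X (0.346 to 0.348) and 0.279% with DMSO (0.278 to 0.280). These intervals cover counting error only. The TMM factor of A549 was 0.557 with AL-X and 1.12 with DMSO, and with library totals as the only scaling its median log2 fold was -0.31 instead of 0.70. Library totals moved the median of all genes in A549 from -0.28 to -1.25 at the same time. The members therefore lay 0.94 above the all-gene median with library totals and 0.98 above it with TMM, and the same distance in H1975 was 0.88 and 0.89. HCC827 members lay below the all-gene median by either scaling, at -0.25 and -0.27.

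The genes are short, and folds in these libraries varied with length. Their median merged exonic length was 2539 bases, against 3838 for all genes tested and 4964 for protein-coding genes. Across protein-coding genes the Spearman rho of fold with exonic length was -0.257 (A549), -0.044 (HCC827) and -0.224 (H1975). With the trend against length taken out, the members' median log2 fold was 0.84 in A549 (all genes 0.05), -0.25 in HCC827 (all genes 0.03) and 0.93 in H1975 (all genes 0.09).

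The ratio of large to small subunit mRNA was higher with AL-X than with DMSO in each of the 3 lines. The summed scaled level of the large subunit was 2857 CPM with AL-X and 1502 CPM with DMSO in A549, 1404 CPM with AL-X and 1692 CPM with DMSO in HCC827, and 2334 CPM with AL-X and 1368 CPM with DMSO in H1975. That of the small subunit was 1598 CPM with AL-X and 1104 CPM with DMSO in A549, 994 CPM with AL-X and 1289 CPM with DMSO in HCC827, and 1508 CPM with AL-X and 959 CPM with DMSO in H1975. Large over small was 1.79 with AL-X and 1.36 with DMSO in A549, 1.41 with AL-X and 1.31 with DMSO in HCC827, and 1.55 with AL-X and 1.43 with DMSO in H1975. Scaling cancels in this ratio. Its log2 change was 0.39 (A549), 0.11 (HCC827) and 0.12 (H1975), with a mean of 0.21 ± 0.16 (SD, n = 3 lines). An exact sign-flip test on 3 pairs cannot give a two-sided p below 0.25, so no test was made. Without MRPL18 the change in A549 was 0.29, and 0.11 in both other lines.

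**Figure D2:**
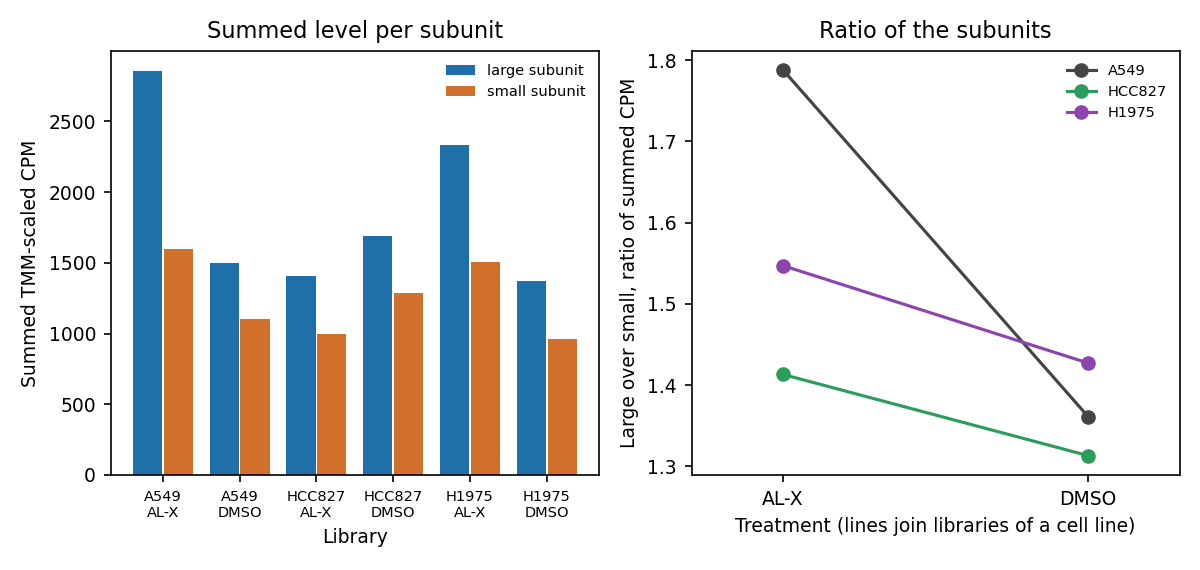
Left, summed TMM-scaled CPM of the 49 large and 29 small subunit genes in each library, AL-X beside DMSO. Right, the ratio of both sums, with a line joining the AL-X and DMSO library of a cell line. The ratio was higher with AL-X in A549 (1.79 against 1.36), HCC827 (1.41 against 1.31) and H1975 (1.55 against 1.43).

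Medians over genes gave a less even picture. The large subunit's median log2 fold was 0.77 (A549), -0.35 (HCC827) and 0.74 (H1975), and the small subunit's was 0.39 (A549), -0.34 (HCC827) and 0.55 (H1975). Across lines it was 0.42 for the large and 0.17 for the small subunit, with 42 of 49 and 22 of 29 genes above 0. Large minus small, the medians differed by 0.38 in A549 and 0.19 in H1975, and by -0.02 in HCC827. Without A549 the across-line difference of medians was 0.02. The letter in a symbol is also not always the subunit: MRPS30 and MRPS18A sit in the large subunit of the human particle, and MRPS36 is now known as a subunit of the 2-oxoglutarate dehydrogenase complex. With genes placed by structure the log2 change of the ratio of sums was 0.46 (A549), 0.12 (HCC827) and 0.08 (H1975).

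Among the highest members were MRPL18 and MRPL32. MRPL18 is a protein of the central protuberance, the crown of the large subunit, and stressed cells can also make a cytosolic form of it. It had 272 CPM with AL-X and 36.5 CPM with DMSO in A549, 38.1 CPM with AL-X and 48.6 CPM with DMSO in HCC827, and 70.8 CPM with AL-X and 31.3 CPM with DMSO in H1975. The A549 library with AL-X stood far above the other 5, and in HCC827 AL-X lay below DMSO. The log2 folds, with exact binomial intervals for counting error only, were 2.90 (95% interval 2.85 to 2.95) in A549, -0.35 (-0.40 to -0.30) in HCC827 and 1.18 (1.12 to 1.23) in H1975, and the across-line fold was 1.24 (SE 0.64, edgeR adjusted p = 0.370), or 0.46 without A549 and 2.00 without HCC827. MRPL18 (ENSG00000112110, GRCh38 chromosome 6, 159789812 to 159798436) made up 6.11% of all CPM of the 78 genes in A549 with AL-X, the largest part of any of them in that library.

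MRPL32 is trimmed by the m-AAA protease of the inner membrane before it can be built into the ribosome, as shown in yeast and mouse. It had 132 CPM with AL-X and 26.8 CPM with DMSO in A549, 30.7 CPM with AL-X and 33.1 CPM with DMSO in HCC827, and 70.0 CPM with AL-X and 31.4 CPM with DMSO in H1975, for an across-line log2 fold of 1.12 (SE 0.56, edgeR adjusted p = 0.353), or 0.57 without A549 and 1.69 without HCC827. As with MRPL18, both HCC827 libraries lay close together and A549 was farthest apart. MRPL55, another large subunit protein, was 1.12 across lines (SE 0.56, edgeR adjusted p = 0.351) with another order of lines. It had 19.1 CPM with AL-X and 11.8 CPM with DMSO in A549, 21.1 CPM with AL-X and 10.9 CPM with DMSO in HCC827, and 37.6 CPM with AL-X and 11.5 CPM with DMSO in H1975. All 3 AL-X libraries lay above all 3 DMSO libraries for MRPL55 with TMM. Per 1000000 of the library total, A549 had 10.6 with AL-X and 13.1 with DMSO, and the groups overlapped. MRPL55 was not alone in this: with TMM the same order held for MRPL41, MRPL49, MRPL52 and MRPL58. The share of all genes without overlap was not counted. MRPL52 (1.05, SE 0.53), the exit tunnel protein MRPL24 (0.89, SE 0.47) and MRPL49 (0.87, SE 0.46) completed the 6 highest. These 3, like MRPL55, had log2 folds above 0 in every line with TMM. On the opposite strand, exons of FAU cover 9.2% of those of MRPL49, and exons of SYVN1 cover 11.6%. With the strand setting unknown, the counts of MRPL49 may hold reads of these neighbours.

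At the low end stood MRPL46, also of the central protuberance. It had 4.99 CPM with AL-X and 17.1 CPM with DMSO in A549, 8.48 CPM with AL-X and 11.8 CPM with DMSO in HCC827, and 5.30 CPM with AL-X and 8.94 CPM with DMSO in H1975. All 3 AL-X libraries lay below all 3 DMSO libraries with TMM, but per 1000000 of the library total the AL-X library of HCC827 (10.8) and the DMSO library of H1975 (10.7) overlapped. The log2 folds were -1.78 (95% interval -1.95 to -1.61) in A549, -0.48 (-0.59 to -0.37) in HCC827 and -0.75 (-0.91 to -0.61) in H1975, and the across-line fold was -1.0 (SE 0.66, edgeR adjusted p = 0.468), or -0.57 without A549. MRPL46 (ENSG00000259494, chromosome 15, 88459476 to 88467419, minus strand) starts 34 bases from MRPS11 (ENSG00000181991, 88467453 to 88480773, plus strand) in GENCODE release 29, back to back. MRPS11, a small subunit protein with a bacterial homolog, had 38.9 CPM with AL-X and 43.9 CPM with DMSO in A549, 23.4 CPM with AL-X and 19.8 CPM with DMSO in HCC827, and 25.8 CPM with AL-X and 19.3 CPM with DMSO in H1975. Its log2 folds were -0.17 (A549), 0.24 (HCC827) and 0.42 (H1975), so the neighbours lay on the same side of 0 in A549 and on different sides in HCC827 and H1975. No test compared them. With library totals the across-line fold of MRPS11 was -0.26, against 0.16 with TMM.

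The promoters of these genes are shown because they sit at both ends of the order and because those of MRPL46 and MRPS11 overlap. They are RefSeq windows on GRCh38.p14, from 250 bases before to 50 bases after the RefSeq start, 5′ to 3′ on the gene's strand, and the windows of MRPL46 and MRPS11 have 181 bases in common. Capitals mark the letters AAGATGGCG, a core of the YY1 motif, on either strand. MRPL18 is at chr6:159789562-159789861 (plus strand), MRPL32 at chr7:42932126-42932425 (plus), MRPL46 at chr15:88467339-88467638 (minus) and MRPS11 at chr15:88467458-88467757 (plus).
MRPL18: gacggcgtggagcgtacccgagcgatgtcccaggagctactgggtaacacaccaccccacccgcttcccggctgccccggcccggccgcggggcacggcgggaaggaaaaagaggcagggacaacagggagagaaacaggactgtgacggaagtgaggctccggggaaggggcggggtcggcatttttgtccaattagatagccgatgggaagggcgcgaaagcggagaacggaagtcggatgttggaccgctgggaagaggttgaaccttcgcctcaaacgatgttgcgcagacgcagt
MRPL32: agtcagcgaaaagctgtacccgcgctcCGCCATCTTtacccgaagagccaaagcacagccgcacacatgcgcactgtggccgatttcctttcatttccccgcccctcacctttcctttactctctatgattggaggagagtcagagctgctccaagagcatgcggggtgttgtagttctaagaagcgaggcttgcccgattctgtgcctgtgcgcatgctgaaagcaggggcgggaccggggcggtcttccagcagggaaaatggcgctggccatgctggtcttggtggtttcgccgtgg
MRPL46: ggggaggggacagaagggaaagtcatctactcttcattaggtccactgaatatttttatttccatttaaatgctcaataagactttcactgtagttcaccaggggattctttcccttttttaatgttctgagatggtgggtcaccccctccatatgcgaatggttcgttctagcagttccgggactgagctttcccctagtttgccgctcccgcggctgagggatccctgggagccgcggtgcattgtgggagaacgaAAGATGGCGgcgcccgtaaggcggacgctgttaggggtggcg
MRPS11: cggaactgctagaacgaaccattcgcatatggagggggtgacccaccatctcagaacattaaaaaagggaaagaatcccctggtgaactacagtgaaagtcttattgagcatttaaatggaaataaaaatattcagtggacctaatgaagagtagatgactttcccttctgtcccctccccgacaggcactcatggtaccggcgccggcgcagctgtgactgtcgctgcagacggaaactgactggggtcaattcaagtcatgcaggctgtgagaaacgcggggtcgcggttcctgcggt
MRPL46, the lowest gene, and MRPL32, among the highest, both hold the YY1 letters, 8 bases after the start in MRPL46 and at -223 from it, on the reverse strand, in MRPL32. The windows of MRPL18 and MRPS11 hold none. The RefSeq starts of MRPL46 and MRPS11 lie 320 bases apart, against 34 bases between their GENCODE starts. Which of these windows holds the letters depends on the start taken. A window of the same size at the GENCODE start of MRPS11 was not searched, but it would cover the YY1 letters of MRPL46.

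Of the 78 genes 69 had a promoter in the RefSeq table. The letters CCGGAAG, a core of the motif of ETS factors such as GABPA, stood on either strand in 42.0% of them, against 10.7% of all 27305 promoters and 14.2% of the 15843 of protein-coding genes. The YY1 letters stood in 18.8%, against 1.85% of all promoters and 2.74% of protein-coding ones. The NRF1 palindrome stood in 11.6%, against 6.28% and 8.58%, and GGGCGG, an SP1 box, in 60.9%, against 44.6% and 58.5%. Both strands were searched, and no motif contains another. The median across-line log2 fold was 0.45 with and 0.36 without the ETS letters, 0.45 and 0.34 for YY1, 0.20 and 0.42 for NRF1, and 0.44 and 0.30 for SP1. A match is a run of letters in this window and not a bound site.

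The remaining members at the low end were MRPS31 (-0.87, SE 0.65), MRPS25 (-0.63, SE 0.49), MRPS17 (-0.61, SE 0.50), MRPL16 (-0.53, SE 0.53) and MRPL19 (-0.49, SE 0.46), given as across-line log2 folds. MRPS31 had 6.21 CPM with AL-X and 9.86 CPM with DMSO in A549, 7.34 CPM with AL-X and 13.7 CPM with DMSO in HCC827, and 3.93 CPM with AL-X and 8.08 CPM with DMSO in H1975. Each AL-X library of MRPS31 lay below all DMSO libraries, with TMM and with library totals. With TMM this held for MRPL46 and MRPS14 as well, and the share of all genes without overlap was not counted. With library totals the order was looked at for MRPL46, MRPL55 and MRPS31 only, so it is not shown to be particular to MRPS31. In all, with TMM, 7 genes (8.97%, against 25.7% of all genes tested) had a log2 fold below 0 in every line (MRPL19, MRPL46, MRPS14, MRPS16, MRPS17, MRPS25 and MRPS31), 5 of them named for the small subunit. Another 14 (17.9%, against 17.2% of all genes) were above 0 in every line with TMM, 11 of them named for the large subunit. Of all 78 genes 49 are named for the large subunit. In 4 of the genes on 1 side of 0 in every line, 1 line lay within counting error of 0: MRPS25 (-0.01, 95% interval -0.06 to 0.05) and MRPL19 (-0.05, -0.10 to 0.01) in H1975, MRPS35 (0.01, -0.02 to 0.04) in HCC827 and MRPL34 (0.06, -0.06 to 0.18) in A549. With library totals the order of both counts turned: 12 members (15.4%, against 30.9% of all genes) were below 0 in every line and 7 (8.97%, against 11.2%) above.

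**Figure D3:**
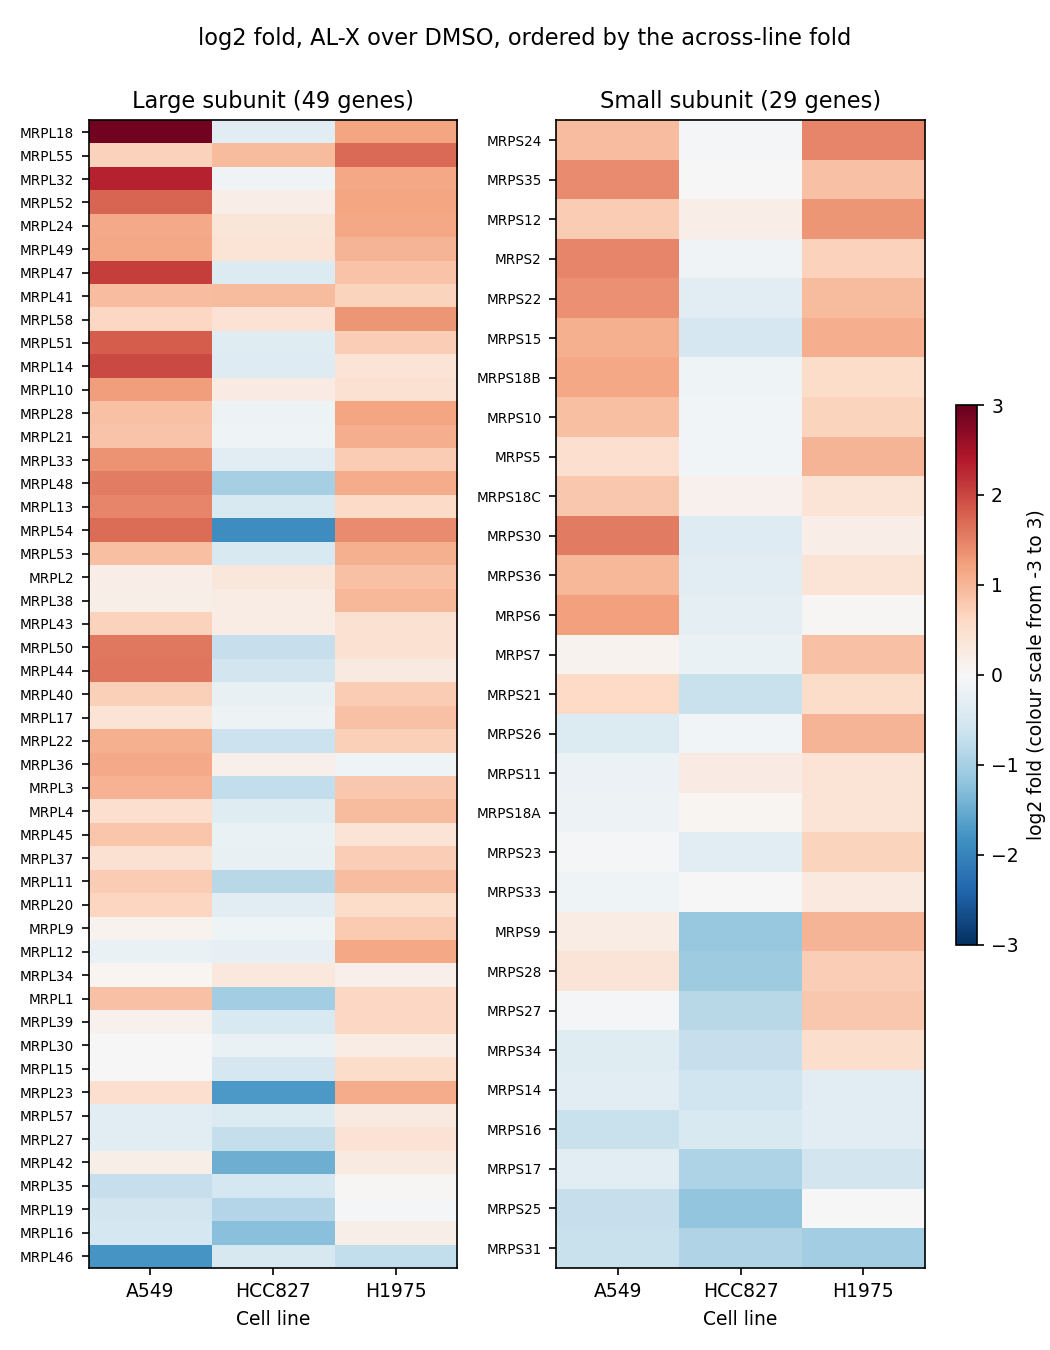
Log2 fold, AL-X over DMSO, of all 78 genes in A549, HCC827 and H1975, with the large subunit left and the small right, ordered by the across-line fold. Red is higher and blue lower with AL-X, on a scale from -3 to 3. The middle column of HCC827 is mostly pale blue, while MRPL46 and MRPS31, at the foot of each panel, are blue in all 3 columns.

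By place in the ribosome, the 3 stalk proteins, which recruit elongation factors, had a median across-line log2 fold of 0.30. Among them, MRPL12 had 53.2 CPM with AL-X and 60.8 CPM with DMSO in A549, 33.3 CPM with AL-X and 39.6 CPM with DMSO in HCC827, and 94.6 CPM with AL-X and 41.9 CPM with DMSO in H1975, and H1975 stood farthest from 0 (across lines 0.24, SE 0.50; -0.22 without H1975 and -0.18 with library totals). Of its exonic bases 68.2% are shared with another annotated gene on the same strand, and its counts are uncertain. The 6 proteins at the rim of the exit tunnel had a median of 0.39, from 0.0 for MRPL23 to 0.89 for MRPL24. MRPL45, which ties the ribosome to the inner membrane, had 70.1 CPM with AL-X and 39.4 CPM with DMSO in A549, 40.1 CPM with AL-X and 46.3 CPM with DMSO in HCC827, and 47.7 CPM with AL-X and 35.6 CPM with DMSO in H1975. The 6 proteins of the central protuberance had a median of 0.53 and held both the highest gene, MRPL18, and the lowest, MRPL46. MRPL48, of the same structure, had 40.5 CPM with AL-X and 13.9 CPM with DMSO in A549, 8.91 CPM with AL-X and 17.7 CPM with DMSO in HCC827, and 15.3 CPM with AL-X and 7.0 CPM with DMSO in H1975. MRPL58, a peptidyl-tRNA hydrolase that frees stalled chains and is also built into the protuberance, was 0.79 across lines (SE 0.51) and above 0 in each line.

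Members with a bacterial homolog and members without one had much the same medians. For 3 genes no class was set. The 46 with a homolog had a median across-line log2 fold of 0.37 and the 29 without one 0.42. Within A549 the medians were 0.71 with and 0.70 without a homolog, within HCC827 -0.30 with and -0.39 without, and within H1975 0.68 with and 0.67 without. MRPL3, whose bacterial homolog L3 lies near the peptidyl transferase centre, had 151 CPM with AL-X and 73.5 CPM with DMSO in A549, 69.8 CPM with AL-X and 117 CPM with DMSO in HCC827, and 184 CPM with AL-X and 106 CPM with DMSO in H1975. MRPL44, which has an RNase III-like fold, had 98.1 CPM with AL-X and 32.5 CPM with DMSO in A549, 27.2 CPM with AL-X and 39.9 CPM with DMSO in HCC827, and 33.5 CPM with AL-X and 27.8 CPM with DMSO in H1975. For MRPL3 as for MRPL44, HCC827 lay below its DMSO library and the other lines above theirs.

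In the small subunit, MRPS12, a protein of the decoding site, had 76.9 CPM with AL-X and 45.1 CPM with DMSO in A549, 21.4 CPM with AL-X and 18.5 CPM with DMSO in HCC827, and 38.1 CPM with AL-X and 15.2 CPM with DMSO in H1975 (across lines 0.77, SE 0.49). MRPS34, a mitochondria-specific protein, had 55.2 CPM with AL-X and 70.9 CPM with DMSO in A549, 43.5 CPM with AL-X and 70.7 CPM with DMSO in HCC827, and 94.3 CPM with AL-X and 65.8 CPM with DMSO in H1975, with an across-line log2 fold of -0.18 (SE 0.47; 0.04 without HCC827). The log2 fold of MRPS26 was below 0 in A549 (-0.41) and HCC827 (-0.08) and above it in H1975 (1.03). MRPS35 had log2 folds of 1.41 (A549), 0.01 (HCC827) and 0.88 (H1975).

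Human cells have a trio of paralogs of the bacterial protein S18. MRPS18B had 74.7 CPM with AL-X and 33.6 CPM with DMSO in A549, 47.0 CPM with AL-X and 51.6 CPM with DMSO in HCC827, and 47.9 CPM with AL-X and 33.0 CPM with DMSO in H1975. MRPS18C had 17.2 CPM with AL-X and 9.88 CPM with DMSO in A549, 12.8 CPM with AL-X and 11.6 CPM with DMSO in HCC827, and 10.6 CPM with AL-X and 7.93 CPM with DMSO in H1975. MRPS18A had 14.1 CPM with AL-X and 15.7 CPM with DMSO in A549, 30.4 CPM with AL-X and 29.3 CPM with DMSO in HCC827, and 25.4 CPM with AL-X and 19.0 CPM with DMSO in H1975. Their across-line log2 folds were 0.52 (SE 0.48) for MRPS18B, 0.45 (SE 0.60) for MRPS18C and 0.11 (SE 0.52) for MRPS18A. Exons of RSPH9 on the opposite strand cover 47.0% of those of MRPS18A, and those of ABRAXAS1 cover 40.2% of MRPS18C, so with the strand setting unknown these counts may hold reads of the neighbours. MRPS30 was 0.44 (SE 0.52) across lines, or -0.05 without A549, and MRPS36 0.36 (SE 0.69).

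The 8 genes at least 2-fold lower in HCC827 with TMM were MRPL1, MRPL16, MRPL23, MRPL42, MRPL54, MRPS9, MRPS25 and MRPS28. They were 10.3% of the members, a smaller share than the 17.2% of all genes. With library totals 6 (7.69%) were lower, against 15.1% of all genes. MRPL54 had 1.96 CPM with AL-X and 7.19 CPM with DMSO in HCC827, 23.2 CPM with AL-X and 7.30 CPM with DMSO in A549, and 23.1 CPM with AL-X and 8.64 CPM with DMSO in H1975. The DMSO libraries lay close together, the AL-X library of HCC827 lay below them and those of A549 and H1975 above. In HCC827 the log2 fold was -1.86 (95% interval -2.08 to -1.67), against 1.67 for A549 and 1.42 for H1975, and the HCC827 interaction was -3.42 (SE 1.41, edgeR adjusted p = 0.424). The split was similar for MRPL23, with log2 folds of -1.72 (HCC827), 0.50 (A549) and 1.11 (H1975). MRPL41 and MRPL55 lay at the other end in HCC827, at 0.94 and 0.95.

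Levels per length with DMSO were compared in transcripts per 1000000 (TPM), from counts and merged exonic length. MRPS34 was the highest, at 265 ± 9.16 TPM (SD, n = 3 lines), followed by MRPL12 (192 ± 36.9), MRPS35 (159 ± 75.8) and MRPL3 (154 ± 40.8), which did not differ from each other beyond their spread. MRPL46 (8.17 ± 2.24) and MRPS18C (8.46 ± 1.55) were the lowest. The median gene had 42.6, 50.2 and 43.7 TPM in A549, HCC827 and H1975 with DMSO. The log2 TPM of the 78 genes correlated between DMSO libraries with Pearson r of 0.813 for A549 with HCC827, 0.822 for A549 with H1975 and 0.843 for HCC827 with H1975, as a description across genes. The highest of the 3 DMSO libraries was a median of 1.60 times the lowest, and at least 2-fold apart for 20.5% of the members, against 1.94 times and 47.8% for all genes with at least 5 CPM in a DMSO library.

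Related gene lists gave the context. None of the nuclear genes in these 6 lists passed in edgeR. At an unadjusted p under 0.05 were 2 of 5 ribosomal proteins with other symbols and 2 of 26 assembly genes. So were 0 of 16 translation factors, 1 of 17 synthetases, 6 of 79 cytosolic ribosomal proteins and 1 of 75 respiratory chain subunits. Of all genes tested, 15.7% had an unadjusted p under 0.05. In these lists DESeq2 called DDX28, TARS2 and FAU, beside 9.91% of all genes, and limma-voom called 0, beside 3.04% of all genes. The 5 ribosomal proteins whose symbols lie outside the rule had a median across-line log2 fold of 0.82. GADD45GIP1, which sits at the tunnel exit, had 74.7 CPM with AL-X and 28.7 CPM with DMSO in A549, 36.6 CPM with AL-X and 23.0 CPM with DMSO in HCC827, and 94.7 CPM with AL-X and 41.8 CPM with DMSO in H1975 (across lines 1.08, SE 0.46, edgeR adjusted p = 0.294). AURKAIP1 was 1.05 (SE 0.46), CHCHD1 0.82 (SE 0.63) and the GTP-binding DAP3 0.77 (SE 0.51), while the pentatricopeptide protein PTCD3 was -0.33 (SE 0.46). Among 26 ribosome assembly genes 0 passed and the median was -0.03. MTERF3, a mitochondrial termination factor family protein, was 1.26 (SE 0.63), and DDX28, a helicase that helps assemble the large subunit, was -2.53 (SE 0.85, edgeR adjusted p = 0.208; DESeq2 adjusted p = 0.0124). DDX28 had 0.92 CPM with AL-X and 15.1 CPM with DMSO in A549, 16.0 CPM with AL-X and 20.6 CPM with DMSO in HCC827, and 2.39 CPM with AL-X and 19.5 CPM with DMSO in H1975.

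Of 16 mitochondrial translation factors 0 passed, with a median of 0.07, from -0.76 for the initiation factor MTIF3 to 1.00 for the mRNA-binding SLIRP. Of 17 mitochondrial aminoacyl-tRNA synthetases 0 passed, with a median of -0.33, from -2.48 for PARS2 to 0.65 for HARS2. The 2 ribosomal RNAs, which the members bind, did not pass in edgeR, both with an unadjusted p under 0.05: MT-RNR1 was -2.28 (SE 0.93) and MT-RNR2 -3.79 (SE 1.12). Within lines the log2 fold of MT-RNR1 was -3.80 (A549), 0.16 (HCC827) and -2.88 (H1975), and that of MT-RNR2 -5.35 (A549), -1.74 (HCC827) and -4.14 (H1975). In HCC827 MT-RNR1 had 1366 CPM with AL-X and 1224 CPM with DMSO. Without HCC827 both passed in edgeR, MT-RNR1 at -3.38 (adjusted p = 0.0415) and MT-RNR2 at -4.78 (adjusted p = 0.0110). DESeq2 called both and limma-voom called MT-RNR2. At the ends of the 13 mRNAs, the across-line log2 fold of MT-CO3 was -9.46 (SE 1.41, edgeR adjusted p = 0.0225). For MT-ND5 it was -6.66 (SE 1.17, edgeR adjusted p = 0.0428).

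In both large nuclear lists nearest in kind, HCC827 had the lowest median of the lines with TMM, as in the members. Cytosolic ribosomal proteins (79 genes) had medians of 1.98 (A549), -0.50 (HCC827) and 1.32 (H1975), and 93.7% of them were above 0 in A549 and H1975 and below 0 in HCC827. They ran from 0.46 for RPL7A to 2.03 for RPS28 across lines. Nuclear respiratory chain subunits (75 genes) had medians of 1.21 (A549), -0.24 (HCC827) and 0.79 (H1975), and 68.0% had that pattern. They ran from -0.30 for NDUFS1 to 1.24 for COX5A. With library totals the A549 medians were -0.31 for the members, 0.98 for cytosolic ribosomal and 0.21 for respiratory chain genes. The SD of the fold in A549 was 0.83 for the members, against 0.53 for cytosolic ribosomal and 0.63 for respiratory chain genes. These differences between lists were not tested.

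**Figure D4:**
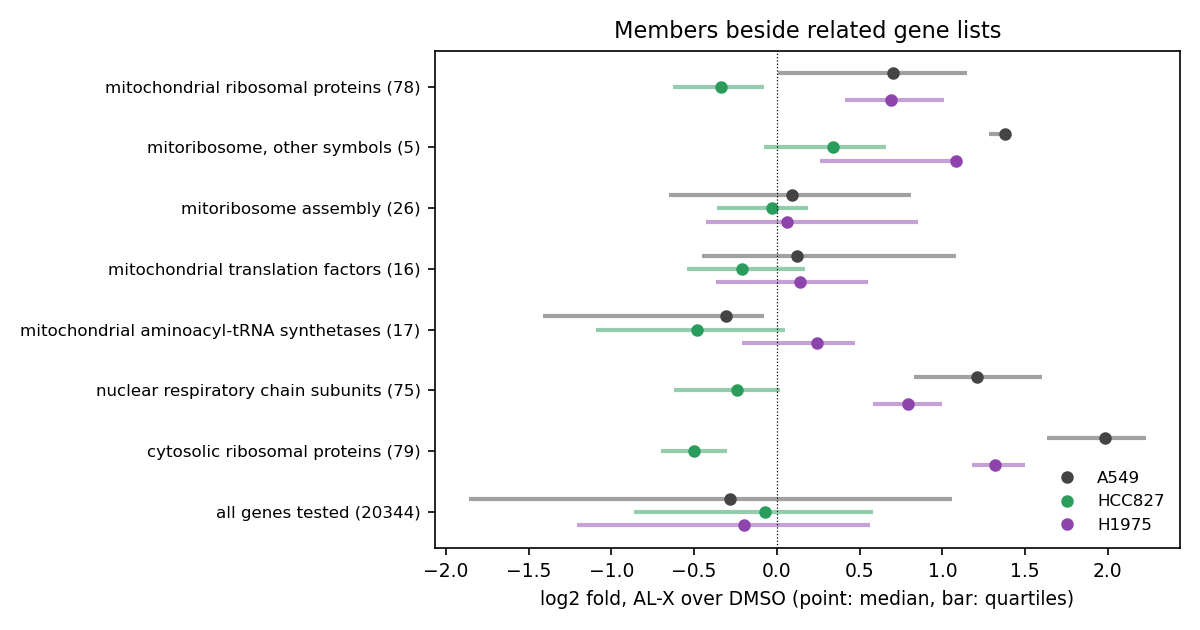
Points are medians and bars quartiles of the log2 fold, AL-X over DMSO, for the 78 mitochondrial ribosomal protein genes, related lists and all genes tested, in A549 (grey), HCC827 (green) and H1975 (purple). Number of genes is in brackets. The median of HCC827 lies left of those of the other lines with TMM for the members and the 6 lists, though not for all genes tested, and the medians of the assembly, factor and synthetase lists lie between -0.48 and 0.24.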

How the data were processed

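Poly(A) RNA of 3 cell lines, each with 1 AL-X and 1 DMSO library, was sequenced in pairs on an Illumina instrument after Trizol extraction and library preparation with a SureSelect XT HS2 mRNA kit, per the labels' protocols. The table the authors deposited holds raw counts, a whole number for each Ensembl identifier and library. The submitters' processing notes name bcl2fastq 2.20 and GRCh38. The aligner, counter, annotation release and strand setting are not given in the sources, so reads shared by overlapping genes or near-identical copies cannot be assigned: 41 of the 78 members share exonic bases with another gene in GENCODE release 29, and 79 pseudogenes of the family were left out.

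Symbols were found for 60401 of 60671 identifiers, and positions and merged exonic lengths for 58453 in GENCODE release 29. edgeR 4.0.16 (R 4.3.3, TMM, filterByExpr on treatment, robust quasi-likelihood test, line as block, 2 residual degrees of freedom) was fitted to all 20344 genes kept. The cell line tag pairs the libraries: deviations from the group means correlated within a line at 0.656, 0.521 and 0.694. Within-line folds used a prior count of 2 and, for a 2-fold call, at least 5 CPM in the higher library. Alternatives were DESeq2 1.42.0 and its size factors, library totals, limma 3.58.1 voom, other filters, no robust shrinkage, no block, each line left out, and a lowess trend of fold against length taken out. Leaving MRPL18 out of the subunit sums was chosen after seeing the data. Named genes were the 6 highest and 6 lowest across-line folds, the 3 members at each end of the A549 minus HCC827 fold, the 4 highest and 2 lowest DMSO levels per length, 12 fixed members, 5 ribosomal proteins with other symbols and both ends of each related list. Members and lists were chosen with earlier results of these data known. MRPL1, MRPL23, MRPL41, MRPL42, MRPS6, MRPS9, MRPS14, MRPS16, MRPS28, TARS2, FAU and the neighbours of MRPS17 were named after their values were seen. The script was checked on simulated counts.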

Additional observations from a re-analysis of the deposited data

Results flagged for a closer look

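The direction of the median fold differed between lines. Over the 78 genes the median log2 fold was -0.34 in HCC827, opposite in sign to A549 (0.70) and H1975 (0.69). The large subunit had -0.35 in HCC827 against 0.77 and 0.74, and the small subunit -0.34 against 0.39 and 0.55. With 1 library pair per line the difference of these medians was not tested. With library totals as the only scaling the A549 median over the 78 genes was -0.31, on the same side of 0 as HCC827.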

How the results depend on the processing

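No alternative called any member: 0 higher and 0 lower under all 13 other fits, including each line left out. Library totals, no filter and no block by line called 0 of all genes tested, so no member could pass in those fits. The other fits called from 0.0593% (mitochondrial genes left out before TMM) to 9.91% (DESeq2) of all genes. The across-line median log2 fold ran from -0.05 (library totals) to 0.50 (length trend taken out) across the settings with all lines, and from 0.21 to 0.64 with 1 line left out. It stayed above the all-gene median in each, by 0.35 (A549 left out) to 1.04 (HCC827 left out). Without the replicate block by line it was 0.46, with 0 members called. That fit called 0 of all genes tested, so it cannot show whether the block matters for the members. Of the 13 mitochondrial mRNAs 0 passed without the block (MT-CO3 -8.15, MT-ND5 -5.56). The across-line difference of subunit medians lay between 0.02 (A549 left out) and 0.26 with 1 line left out. Library totals changed the within-line counts of members at least 2-fold higher to 3 in A549, 2 in HCC827 and 3 in H1975, those lower to 20 in A549 and 2 in H1975, and the A549 median to -0.31. With the length trend taken out 1 gene was at least 2-fold higher in HCC827, 33 were higher in H1975 and 0 lower there, and with a minimum of 10 CPM 0 were lower in H1975. Without mitochondrial genes in the denominator the share of counts was 0.309% for A549 with DMSO, 0.307% with AL-X and 0.371% with DMSO for HCC827, and 0.298% for H1975 with DMSO.

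Among named genes, library totals turned the across-line sign of MRPS11 (-0.26), MRPS26 (-0.24), MRPL12 (-0.18), MRPL3 (-0.06), MRPL45 (-0.08), MRPS36 (-0.07) and MRPS18A (-0.32), none of them called. With each line left out in turn, the sign also changed for MRPL54 (-0.17 to 1.51, and -0.10 without H1975), MRPL44 (-0.09 to 0.90), MRPS30 (-0.05 to 0.84), MRPS34 (-0.53 to 0.04), MRPS26 (-0.25 to 0.52), MRPL12 (-0.22 to 0.51) and MRPS18A (-0.05 to 0.28). PARS2 was 0.05 without the block. The cause was not tested.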

Other observations

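Among the 3 DMSO libraries the member farthest apart was MRPS17, a small subunit protein with a bacterial homolog, chosen after its values were seen. It had 72.5 CPM in HCC827, against 11.0 CPM in A549 and 16.1 CPM in H1975, a 6.57-fold range. MRPS17 lies on chromosome 7 from 55951819 to 55956501 (GRCh38), on the same arm as the growth factor receptor gene EGFR (55019021 to 55211628). In the 1500000 bases to either side, 11 protein-coding genes had at least 5 CPM in a DMSO library, MRPS17 itself among them. All 11 had their highest DMSO level in HCC827, from 2.44 times the mean of the other lines for PSPH to 21.8 times for LANCL2. MRPS17 was picked for its range, and the share of all genes highest in HCC827 was not counted. EGFR had 3652 CPM in HCC827, against 319 CPM in A549 and 443 CPM in H1975, all with DMSO. MRPS17 was 5.35 times and its overlapping neighbour NIPSNAP2 3.09 times the mean of the other lines. The cause was not tested. HCC827 was also the highest of the AL-X libraries, at 38.2 CPM, against 8.79 CPM in A549 and 10.9 CPM in H1975.

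MRPL23 had the next widest range with DMSO, from 4.74 CPM in H1975 to 29.7 CPM in A549, followed by MRPS6, from 13.4 CPM in A549 to 59.8 CPM in H1975. The 79 pseudogenes of the family summed to 8.28 CPM with AL-X and 7.34 CPM with DMSO in A549, 8.22 CPM with AL-X and 9.69 CPM with DMSO in HCC827, and 9.83 CPM with AL-X and 8.51 CPM with DMSO in H1975.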
